A study of Mus musculus with 8 samples.

Results

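The genes described are the mouse zinc finger protein genes whose symbol is Zfp followed only by a number and which lie on chromosome 7, 13 or 17. A total of 158 of the 15978 rows of the table met this rule, 85 on chromosome 7, 32 on chromosome 13 and 41 on chromosome 17. Rows for extra gene copies, whose names carry their own chromosome, were left out, which removed 3 rows with a Zfp symbol. The other chromosomes held 173 further Zfp genes, so that 158 of 331 lay on these 3 chromosomes.

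Brain RNA was sequenced from 5 male C9-BAC mice and 3 male wild-type mice, 8 samples in all. C9-BAC mice carry a bacterial artificial chromosome, a large cloned piece of human DNA, with the C9ORF72 gene and 500 G4C2 repeats, and this repeat expansion in people is known from amyotrophic lateral sclerosis and frontotemporal dementia. Both genotypes shared a mixed SJL/Bl6 background, and the labels used here name no age, no brain region, no batch and no number of founder lines. Samples carry separate numbers and were counted as separate mice, and were that not so, p-values would describe no more than the spread between samples, possibly a technical one. The comparison bears on how the human transgene with its repeats relates to RNA levels of these genes in the brain.

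Zinc finger proteins of this type hold rows of short finger modules, each folded around a zinc ion, and successive fingers read successive bases of DNA. Many also carry a KRAB box, through which they recruit the corepressor Trim28 and the histone methyltransferase Setdb1 to silence transposons and imprinted regions. The genes arose largely by tandem duplication and therefore lie in clusters of near relatives. In neural cells Trim28 is known to hold transposons silent. The Zfp symbol is broader than this family: Zfp36 encodes tristetraprolin, which binds AU-rich messenger RNAs through fingers of another kind and promotes their decay.

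The sequences below start the 4 genes of smallest p among the 158, with the related stretch between Zfp942 and Zfp943 for comparison. Starts are those of the RefSeq promoter table. All are RefSeq reference sequence of GRCm38.p6, the assembly also called mm10, written 5′ to 3′ with each CG dinucleotide in capitals. The stretches between the starts of head-to-head genes lie on chromosome 17, at chr17:22361401-22361462 and at chr17:21962465-21962558, both on the plus strand. The promoters are the 250 bases before the start, at chr17:21535289-21535538 on the plus strand for Zfp52 and at chr7:4996102-4996351 on the minus strand for Zfp579. The Zfp52 window lies inside the bounds of that gene, which take in every annotated transcript and begin at 21533725.
between Zfp944 and Zfp758: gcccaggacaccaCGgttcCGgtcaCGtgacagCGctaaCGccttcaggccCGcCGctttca
between Zfp942 and Zfp943: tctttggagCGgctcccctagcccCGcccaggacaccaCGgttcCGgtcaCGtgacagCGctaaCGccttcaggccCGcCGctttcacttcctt
Zfp52 promoter: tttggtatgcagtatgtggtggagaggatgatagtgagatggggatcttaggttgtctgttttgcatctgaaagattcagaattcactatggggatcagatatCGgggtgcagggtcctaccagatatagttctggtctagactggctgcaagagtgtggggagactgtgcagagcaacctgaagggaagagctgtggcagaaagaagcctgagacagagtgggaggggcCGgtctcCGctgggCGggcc
Zfp579 promoter: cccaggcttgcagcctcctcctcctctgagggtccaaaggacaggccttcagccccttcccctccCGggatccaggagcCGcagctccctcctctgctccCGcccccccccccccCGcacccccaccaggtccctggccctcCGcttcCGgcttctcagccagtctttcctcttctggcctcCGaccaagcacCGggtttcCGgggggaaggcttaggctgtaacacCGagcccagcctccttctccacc
The stretch of 62 bases between Zfp944 and Zfp758 occurred letter for letter inside the 94 bases between Zfp942 and Zfp943. Among all RefSeq promoter windows of 300 bases (250 before and 50 after a start), those of these 4 genes alone held it. The stretches had 7 and 9 CG dinucleotides, the Zfp52 promoter had 4 and the Zfp579 promoter had 10.

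In the authors' deposited table no gene of the 158 passed the DESeq2 Wald test at an adjusted p under 0.05, and every one had an adjusted p of 0.9997. None of the 15944 rows with a p passed either, a background of 0%. At an unadjusted p under 0.05 the authors' deposited DESeq2 table held 4 of the 158 genes (2.53%), against 239 of all rows, a background of 1.50%. Of these, Zfp579 had a positive log2 fold change, a sign that 0.659% of all rows with a p combined with a p under 0.05, and Zfp52, Zfp944 and Zfp758 had a negative one, a sign for which the share was 0.840%. The header does not say which genotype is the numerator, so signs are given as deposited throughout and say nothing of which genotype was higher.

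Differences were small. Standard errors were at most 0.110 and smaller at low counts, as where a prior pulls fold changes toward 0, which would make the values understate differences and is recorded nowhere in the sources used here. In the authors' deposited table the log2 fold changes of the 158 genes ran from -0.26 to 0.22, which is 0.836-fold to 1.17-fold, and 117 of them (74.1%) lay within 0.1 of 0, against 82.6% of all rows. Of the 158 genes 55 had a positive and 103 a negative log2 fold change, so that 65.2% were negative (exact binomial interval 57.2% to 72.6%, over genes, which are not replicates), against 52.6% of all rows. Their median log2 fold change was -0.037, against -0.0044 for all rows. The Zfp genes of the other chromosomes lay close by, with 114 of 173 negative (65.9%), a median of -0.028 and 2 genes at an unadjusted p under 0.05 in the deposited DESeq2 table (1.16%).

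The level of a gene is given here as its mean normalized count over all 8 samples, called the mean count below, so that values per sample, per genotype and their spread were not analysed here. The 158 genes had a median of 101.1 in the authors' deposited table and a range of 2.39 to 1433, against a median of 170.8 for all rows. A mean of at least 10 was reached by 152 of them, and Zfp541, Zfp473, Zfp389, Zfp457, Zfp820 and Zfp947 stayed below it. Per kilobase of transcript the Zfp genes had a median of 32.5 in mean normalized count, and the highest were Zfp523 with 304.2, a relative of the transcription factor gene Zfp143, Zfp180 with 195.0 and Zfp146 with 167.2. Bulk RNA does not tell fewer cells of a type from less RNA per cell. Markers of neurons, astrocytes, oligodendrocytes, microglia and endothelial cells were all present in the authors' deposited table, among them Snap25 at a mean normalized count of 13868 and Mbp at 9162. Mouse C9orf72 itself, on chromosome 4, had a mean count of 311.2 with log2 fold change -0.08 (SE 0.10, p = 0.454 by the authors' DESeq2 test) in the authors' deposited table, and the human transgene was not analysed here.

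**Figure D1:**
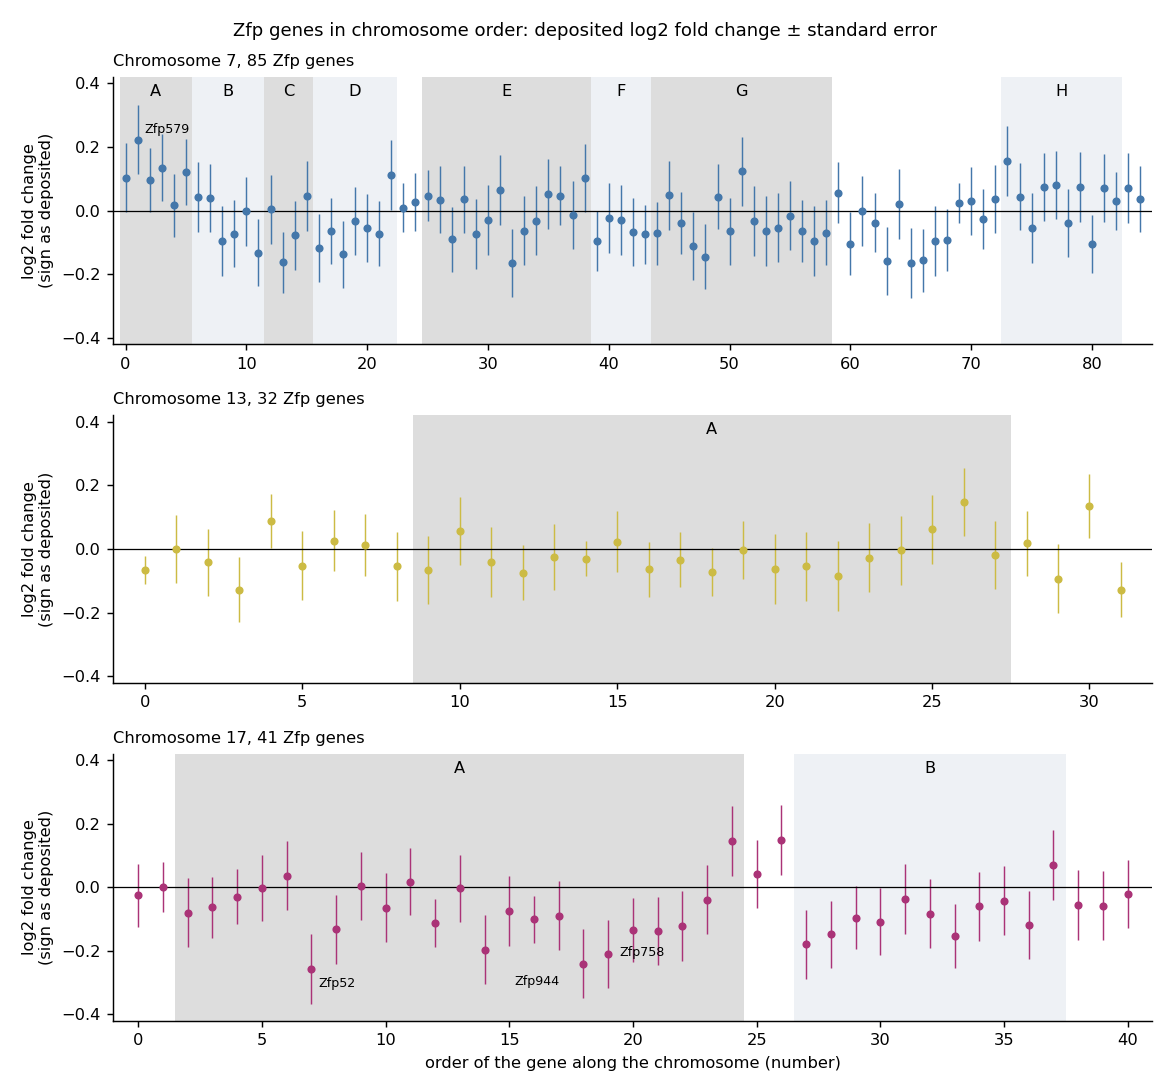
Each point is the log2 fold change of 1 Zfp gene in the authors' deposited table, with its sign as deposited, and each bar is its standard error. Genes stand in their order along chromosomes 7, 13 and 17 from top to bottom, shaded bands with letters are clusters, and the 4 genes with an unadjusted p under 0.05 are named. Points on chromosome 17 lie mostly below 0 (33 of 41), while those on chromosome 7 lie on both sides (37 positive, 48 negative).

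Chromosome 17 had the Zfp genes with the most one-sided signs. In the authors' deposited table, 8 of its 41 Zfp genes were positive and 33 negative (80.5%), with a median log2 fold change of -0.064, against 49.5% negative and a median of 0.0021 for the 745 other rows of the chromosome. An unadjusted p under 0.05 in the deposited DESeq2 table was found for 3 of the 41 Zfp genes (7.32%), against 11 of the 745 other rows (1.48%). The Zfp genes were also much poorer in G and C, with a median transcript GC content of 39.4%, against 53.6% for the other rows of chromosome 17, a property described below.

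On chromosome 7 the signs were closer to even. There 37 Zfp genes were positive and 48 negative in the authors' deposited table (56.5% negative), with a median log2 fold change of -0.025, against 45.7% negative and a median of 0.0055 for the 1124 other rows. Zfp579 was the only Zfp gene of chromosome 7 with an unadjusted p under 0.05 by the authors' DESeq2 test, which is 1.18% of the 85, against 1.34% of the other rows. Their median GC content was 49.0%, against 53.9% for the other rows of that chromosome.

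On chromosome 13 no Zfp gene had an unadjusted p under 0.05 by the authors' DESeq2 test in the authors' deposited table, against 10 of 591 other rows (1.69%), and the smallest was 0.129. The Zfp genes there were 10 positive and 22 negative (68.8% negative) with a median log2 fold change of -0.032, against 53.6% negative and a median of -0.0058 for the other rows. Their mean normalized counts had a median of 50.5.

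**Figure D2:**
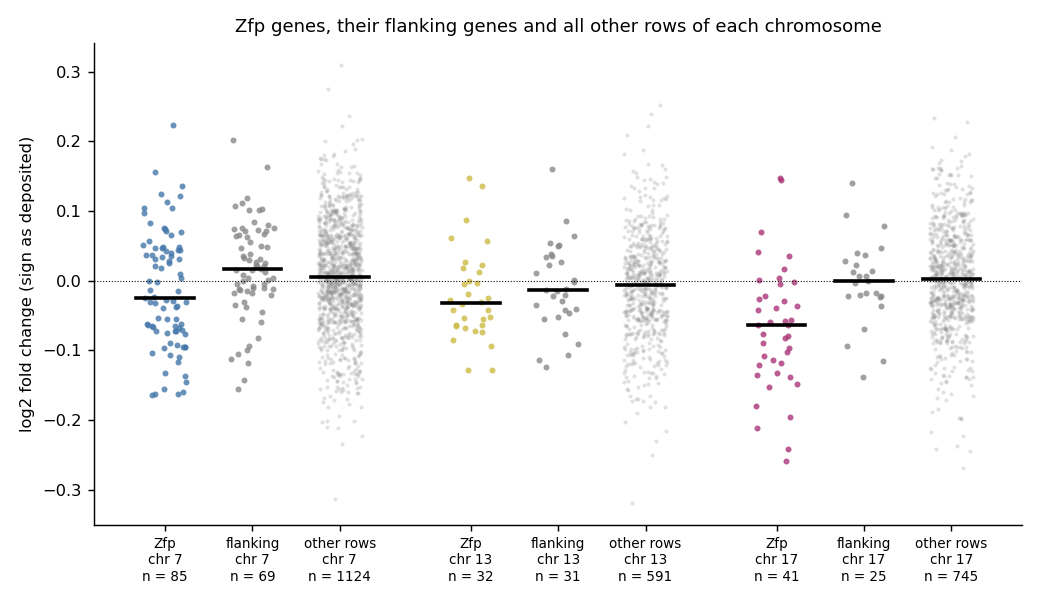
Each point is the log2 fold change of 1 gene in the authors' deposited table, with its sign as deposited, for the Zfp genes, their flanking genes and all other rows (flanking genes included) of chromosomes 7, 13 and 17, and black lines are medians. The medians of the Zfp genes, -0.025, -0.032 and -0.064, lie below those of the other rows of the same chromosome, 0.0055, -0.0058 and 0.0021, while the points overlap widely.

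Of the 158 genes, 120 lay in 11 clusters, a cluster being a run of at least 4 Zfp genes with gaps of at most 500 kb. Clustered genes were 37 positive and 83 negative in the authors' deposited table (69.2% negative, median log2 fold change -0.040), against 18 positive and 20 negative for the 38 genes outside clusters (52.6%, median -0.011). An unadjusted p under 0.05 by the authors' DESeq2 test was found for 4 of the 120 clustered genes (3.33%) and 0 of the 38 outside clusters, against 1.50% of all rows. With so few genes outside clusters, these counts do not tell the groups apart.

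The largest cluster, at chr17:21008941-23599755, ran over 2.59 Mb from Zfp160 to Zfp13 and held 23 Zfp genes and the 3 negative genes of p under 0.05. Of its genes 4 were positive and 19 negative in the authors' deposited table, with a median log2 fold change of -0.080. A KRAB box pattern was found in the longest reading frame of 21 of the 23. Zfp52 (chr17:21533725-21563362, plus strand) had a mean count of 56.6 with log2 fold change -0.26 (SE 0.11, p = 0.0190 by the authors' DESeq2 test), the most negative of the 158 in the authors' deposited table. Beside it in the cluster, the authors' deposited log2 fold change was 0.04 for Zfp53 on the lower side and -0.13 for Zfp948 on the upper side. Zfp944 (chr17:22337983-22361428, minus strand) had a mean count of 101.1 and -0.24 (SE 0.11, p = 0.0264 by the authors' DESeq2 test) in the authors' deposited table, and Zfp758 (chr17:22361430-22393909, plus strand) had 105.3 and -0.21 (SE 0.11, p = 0.0496). At the upper end the last gene, Zfp13, had the opposite sign, with a deposited log2 fold change of 0.15 (SE 0.11, p = 0.187 by the authors' DESeq2 test). Its transcript GC content was 59.1%, against a median of 38.5% for the cluster, while Zfp213 beside it had 59.5% and a log2 fold change of -0.04.

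**Figure D3:**
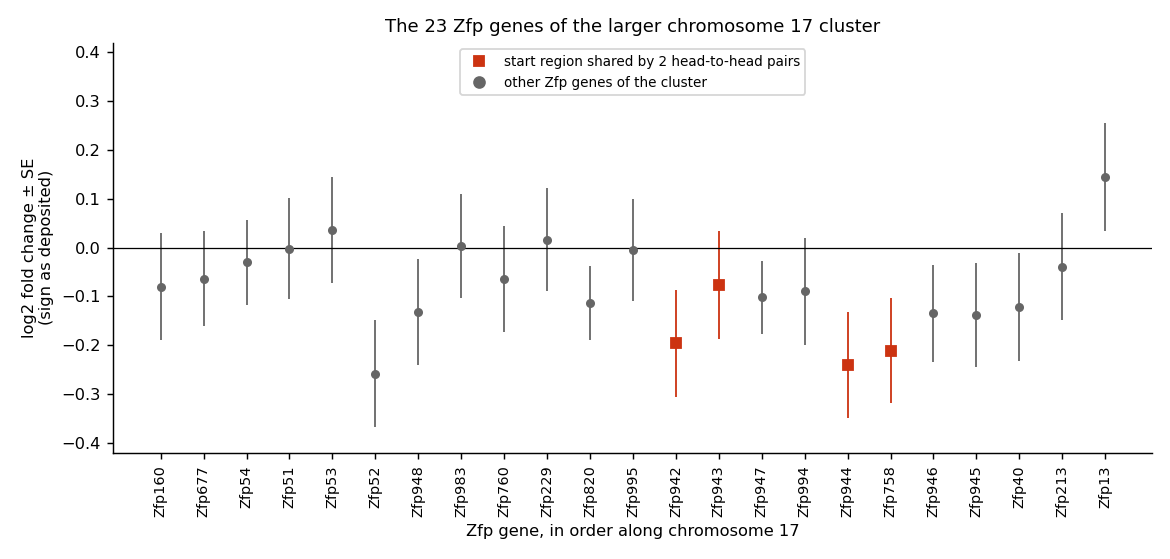
Points are the log2 fold changes, with standard errors, of the 23 Zfp genes of the larger chromosome 17 cluster in the authors' deposited table, in their order along the chromosome and with signs as deposited. Red squares are the 4 genes whose starts share the 62 bases printed above, from -0.24 to -0.08, and grey circles are the other 19, among which Zfp52 is lowest at -0.26 and Zfp13 highest at 0.15.

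The second cluster of chromosome 17, at chr17:32765496-33631716, ran from Zfp871 to Zfp414 with 11 Zfp genes, 1 positive and 10 negative in the authors' deposited table (median log2 fold change -0.096). Zfp871 had the highest mean normalized count of the 158, 1433, and a log2 fold change of -0.18 (SE 0.11, p = 0.0961 by the authors' DESeq2 test) in the authors' deposited table. Zfp414 was the positive gene, with 0.07 (SE 0.11). Of the genes of chromosome 17 outside the clusters, Zfp523 had a mean count of 824.5 and a deposited log2 fold change of 0.15 (SE 0.11, p = 0.179 by the authors' DESeq2 test). Zfp318, known for its part in the processing of immunoglobulin D transcripts in B cells, had 950.8 and -0.06 (SE 0.11) in the authors' deposited table.

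The 8 clusters of chromosome 7 did not share a sign. The cluster from Zfp628 to Zfp580 (chr7:4915181-5053723) was positive for all 6 genes in the authors' deposited table, with a median log2 fold change of 0.11, a median GC content of 62% and a KRAB pattern in none of them. It holds Zfp579 (chr7:4992852-4996101, minus strand), with a mean count of 96.4 and log2 fold change 0.22 (SE 0.11, p = 0.0390 by the authors' DESeq2 test), the most positive of the 158. By contrast the cluster from Zfp60 to Zfp36 was negative for all 5 genes (median -0.066) and that from Zfp84 to Zfp146, with a KRAB pattern in 12 of 15, for 12 genes (median -0.063). The cluster from Zfp551 to Zfp446 was negative for 6 of 7 genes (median -0.065) and that from Zfp787 to Zfp28 for 4 of 6 (median -0.037). Signs were even from Zfp180 to Zfp526, with 7 positive and 7 negative (median 0.011), and from Zfp954 to Zfp772, with 2 of each (median -0.036). Near the far end of the chromosome the cluster from Zfp553 to Zfp646 had 7 positive and 3 negative genes in the authors' deposited table (median 0.058, median GC content 53.8%).

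After Zfp579 the chromosome 7 genes of smallest p were Zfp773, with a log2 fold change of -0.16 (SE 0.10, p = 0.0947 by the authors' DESeq2 test) in the authors' deposited table, and Zfp715, with -0.16 (SE 0.10, p = 0.118). Next to Zfp579 in size were Zfp93, with -0.16 (SE 0.11), and Zfp975, with -0.16 (SE 0.11). The genes of highest mean normalized count were Zfp180 with 740.2 and a log2 fold change of 0.05 (SE 0.08), Zfp260 with 608.3 and -0.06 (SE 0.10), and Zfp646 with 518.8 and 0.03 (SE 0.09) in the authors' deposited table. No p under 0.05 was among those of Zfp773, Zfp715, Zfp93, Zfp975, Zfp180, Zfp260 and Zfp646.

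Chromosome 13 held 1 cluster, at chr13:67038594-67827000, with 19 Zfp genes from Zfp712 to Zfp273. In the authors' deposited table, 4 of them were positive and 15 negative, with a median log2 fold change of -0.030, close to that of all Zfp genes of the chromosome. Zfp493, inside it, had the largest difference of the chromosome's Zfp genes, 0.15 (SE 0.11, p = 0.165 by the authors' DESeq2 test). Outside it, Zfp131, which encodes a factor with a BTB domain, had a mean count of 454.0 with log2 fold change -0.13 (SE 0.09, p = 0.137 by the authors' DESeq2 test) in the authors' deposited table. The smallest p, 0.129, was that of Zfp389, whose log2 fold change was -0.07 (SE 0.04) at a mean normalized count of only 2.39.

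Several of the 158 genes have known roles, and none of these had an unadjusted p under 0.05 by the authors' DESeq2 test. Zfp57, which keeps imprinted regions methylated, had a mean count of 76.3 with log2 fold change -0.06 (SE 0.11) in the authors' deposited table. Zfp568, which silences a placental transcript of Igf2 in the embryo, had 90.4 and -0.03 (SE 0.11). Zfp369 and Zfp110, whose proteins interact with the neurotrophin receptor p75, had mean counts of 297.5 and 156.8 in the authors' deposited table, with log2 fold change -0.05 for Zfp369 and -0.03 for Zfp110 (SE 0.11 each). Zfp536, a repressor of neuronal differentiation, had 401.2 and -0.10 (SE 0.10). The unadjusted p of these 5 genes by the authors' DESeq2 test ran from 0.292 for Zfp536 to 0.777 for Zfp568 in the authors' deposited table.

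Zfp143, an activator of many housekeeping promoters, had a mean count of 152.5 with log2 fold change 0.04 (SE 0.11) in the authors' deposited table. Zfp346, whose protein binds double-stranded RNA, had 322.1 and -0.13 (SE 0.10, p = 0.210 by the authors' DESeq2 test). Zfp366, known from dendritic cells, had 30.3 and 0.14 (SE 0.10, p = 0.173 by the authors' DESeq2 test), and Zfp36 had 18.6 and -0.07 (SE 0.09). The remaining genes listed for this purpose, Zfp40, Zfp658, Zfp710, Zfp507 and Zfp367, lay between -0.12 (Zfp40) and 0.06 (Zfp507) in the authors' deposited table.

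Taken over the 3 chromosomes together, the neighbours of the Zfp genes did not lean to negative values. The nearest row without such a symbol on each side of a Zfp gene gave 125 flanking genes, with a median gap of 72.9 kb over 315 pairs of a Zfp gene and a flanking gene. While 65.2% of the Zfp genes were negative (median log2 fold change -0.037), the flanking genes were 67 positive and 58 negative in the authors' deposited table (46.4% negative, median 0.0064). The groups differed in median GC content, 51.7% for flanking genes and 44.1% for Zfp genes. With the trend on GC content and length taken off, 50% of flanking genes and 57.6% of Zfp genes were negative. On chromosome 7 the Zfp genes were 56.5% negative and the flanking genes 39.1%, on chromosome 13 the shares were 68.8% of Zfp genes and 58.1% of flanking genes, and on chromosome 17 they were 80.5% of Zfp genes and 52.0% of flanking genes. Of the flanking genes 22 encode 3 or more fingers of the same kind under other symbols, and 11 of these were negative. Their median GC content was 41.4%, and with the trend taken off 5 of the 22 were negative (22.7%, median log2 value 0.031).

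The flanking gene with an unadjusted p under 0.05, 1 of 125 (0.800%), was Fiz1, beside Zfp579 on chromosome 7. Fiz1 (chr7:5007056-5014728) encodes a zinc finger protein that interacts with the receptor Flt3, with 11 fingers by the pattern. It had a mean count of 193.3 with log2 fold change 0.20 (SE 0.10, p = 0.0418 by the authors' DESeq2 test) in the authors' deposited table, the same sign as all 6 Zfp genes around it. The large cluster of chromosome 17 was flanked at its lower end by Ppp2r1a, a scaffold subunit of protein phosphatase 2A, with log2 fold change 0.08 (SE 0.08, p = 0.354 by the authors' DESeq2 test). At its upper end the next gene was Thoc6, of a complex for messenger RNA export, with -0.04 (SE 0.10, p = 0.720 by the authors' DESeq2 test), and Gm16386, inside the cluster, had -0.07 (SE 0.11) in the authors' deposited table.

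Rows next to each other along a chromosome were also compared in pairs, up to 500 kb apart. Both members of a pair of neighbouring Zfp genes had the same sign in 56 of 87 pairs (64.4%), 47 of them negative and 9 positive, against 8192 of 15094 pairs of neighbouring rows in the whole table (54.3%). For a Zfp gene next to a gene of another symbol the count was 82 of 128 (64.1%), with 43 pairs negative and 39 positive. The Spearman rho of the log2 fold changes was 0.213 over the 87 pairs, 0.345 over the 128 and 0.122 over all pairs, a description of genes that share base composition, libraries and in part overlapping bounds. With the trend on GC content and length taken off, the shares of equal sign were 54.0% for neighbouring Zfp genes, 61.4% for the mixed pairs and 51.4% for all pairs.

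A closer pair was the head-to-head arrangement, with starts within 1 kb on opposite strands, and the stretches printed above lie between such starts. Such pairs were sought only among genes with a RefSeq promoter, which 140 of the 158 had. Gene bounds take in every annotated transcript and come closer together, with Zfp944 ending at 22361428 and Zfp758 beginning at 22361430. In the authors' deposited table the log2 fold change was -0.24 for Zfp944 and -0.21 for Zfp758, as given above. Zfp942 and Zfp943, in the same cluster, had -0.20 (SE 0.11, p = 0.0738 by the authors' DESeq2 test) and -0.08 (SE 0.11, p = 0.488), with mean counts of 162.1 and 176.5. All 4 genes that share the 62 bases were thus negative, as were 19 of the 23 Zfp genes of the cluster. These 4 genes also share some transcript sequence with one another, as given below. The stretch was printed because Zfp944 and Zfp758 were among the 4 genes of smallest p, so their p says nothing of the shared bases. Zfp65 on chromosome 13 was head to head with Zfp85os, and their deposited values in the authors' table were -0.0048 for Zfp65 and 0.05 for Zfp85os on the log2 scale. Over the whole table, 448 of 802 head-to-head pairs had the same sign (55.9%). By gene bounds, Zfp668 (minus strand, ending at 127876836) and Zfp646 (plus strand, beginning at 127876914) on chromosome 7 also lie head to head. Their deposited log2 fold changes were 0.07 for Zfp668 and 0.03 for Zfp646. Zfp646 had no RefSeq promoter, so this positive pair was not among those found. Another positive pair by gene bounds was Zfp784 (minus strand, ending at 5038446) and Zfp580 (plus strand, beginning at 5038519), with 0.02 and 0.12. It was missed because the RefSeq promoter of Zfp580 starts farther along, at 5051532. Pairs by gene bounds were not counted.

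The 62 shared bases hold TCACGTGA, a palindrome around the E-box core that basic helix-loop-helix factors bind, and this motif was chosen after the sequence had been seen. Of 140 Zfp genes with a RefSeq promoter, 6 held it in the 250 bases before the start: the 4 genes whose shared stretch supplied the motif, Zfp507 and Zfp747. The other 136 windows thus held it in 2 cases (1.47%), against 1.40% of the windows of genes in the table and 0.803% of 27025 windows of all genes. Both strands were read for every motif, and the shares below are set against Zfp genes of the other chromosomes (134 windows), genes in the table and all genes, in that order. The start of the element that the Zfp143 protein binds, ACTACAA, was in 10 of 140 Zfp windows (7.14%), against 6.72%, 3.55% and 2.97%. The CCAAT box was in 61 (43.6%), against 50%, 36.3% and 34.5%, and the cyclic AMP response element TGACGTCA in 6 (4.29%), against 2.24%, 2.60% and 1.60%. TATAAA was in 8 (5.71%), against 7.46%, 7.03% and 13%. GGGCGG was in 49 (35%), against 50.7%, 56.6% and 33%. The palindromic site of the factor NRF-1 was in 7 (5%), against 9.70%, 7.43% and 3.87%, and AAGATGGCG was in none, against 1.49%, 0.975% and 0.592%. The median number of CG dinucleotides was 9 in the Zfp windows, against 13, 15 and 6. These matches describe letters in a window and say nothing of binding.

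Base composition went with the sign of the fold change across the whole table. In a line fitted over all rows, the log2 fold change in the authors' deposited table was higher by 0.046 per 10 points of transcript GC content. The Zfp genes had a median GC content of 44.1%, against 50.5% for all rows. When all rows were cut into 5 equal parts by GC content, 83 of the 158 Zfp genes fell in the lowest part (under 44.7%). There 68 of 83 were negative (81.9%) with a median log2 fold change of -0.064, against 76.0% and -0.045 for the 3091 other rows of that part. In the highest part (over 56.1%) 5 of 23 Zfp genes were negative (21.7%, median 0.047), against 34.1% of the other rows (median 0.028).

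**Figure D4:**
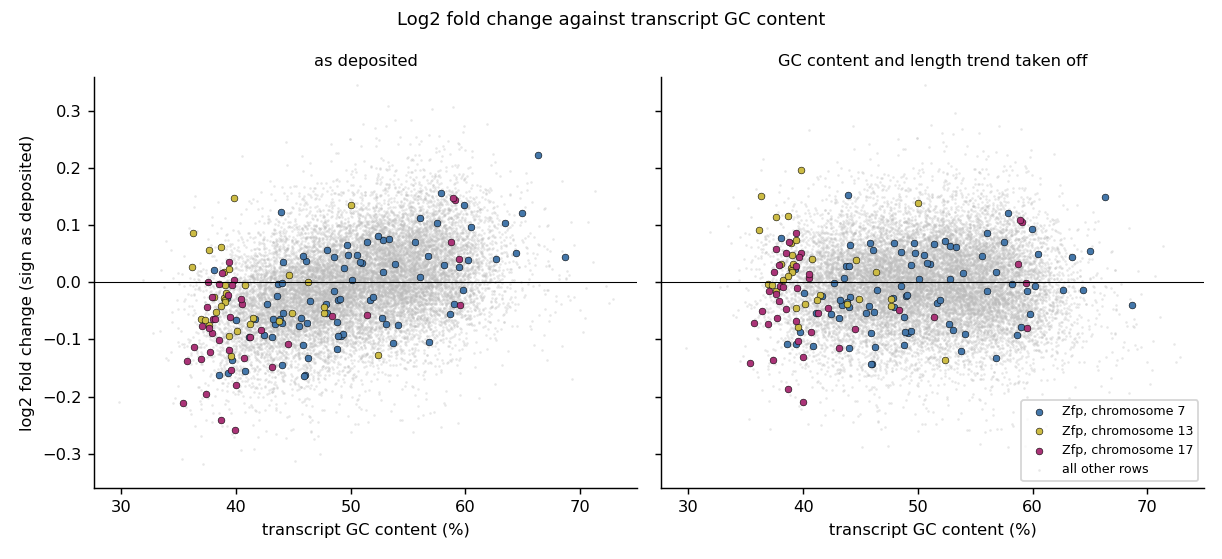
Each point is 1 gene, with transcript GC content in percent on the horizontal axis and log2 fold change on the vertical axis, as in the authors' deposited table (left) and with the linear trend on GC content and length taken off (right). Coloured points are Zfp genes by chromosome and grey points are all other rows. On the left the Zfp genes of lowest GC content lie mostly below 0, and on the right 91 of all 158 Zfp genes lie below 0.

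Values by chromosome within the lowest part of GC content were as follows. Of the Zfp genes there, 30 of 34 on chromosome 17 were negative (88.2%, median log2 fold change -0.086), as were 20 of 23 on chromosome 7 (87.0%, median -0.065) and 18 of 26 on chromosome 13 (69.2%, median -0.029), against 76.0% of the other rows. In the highest part, chromosome 17 had 4 positive Zfp genes, among them Zfp13, Zfp414 and Zfp523, and 1 negative. Chromosome 7 had 14 positive and 4 negative there. Across Zfp genes the Spearman rho of log2 fold change with GC content was 0.437 (n = 158), against 0.382 across all rows (n = 15869). It was 0.565 on chromosome 7, 0.367 on chromosome 17 and -0.189 on chromosome 13, where 26 of the 32 genes lie in the lowest part. These are descriptions across genes, which are not replicates.

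With the linear trend on GC content and length taken off, 91 of the 158 Zfp genes were negative (57.6%, median log2 value -0.014), against 52.5% of all rows (median -0.0039). By chromosome the medians were then -0.015 on chromosome 7, 0.019 on chromosome 13, the opposite sign to the value as deposited, and -0.032 on chromosome 17, where 27 of 41 stayed negative (65.9%). None of the 158 had a p under 0.05 after this step, against 159 of 15835 rows (1%). The values were 0.0616 for Zfp52, 0.0919 for Zfp944, 0.201 for Zfp758 and 0.180 for Zfp579, each from the statistic of the deposited DESeq2 table less its trend.

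Among 156 Zfp genes with a reading frame the median was 12 fingers and the highest 33, in Zfp619, and 149 had at least 3. A KRAB pattern was found in 85 of them. These 85 were 77.6% negative in the authors' deposited table (66 genes, median log2 fold change -0.060, median GC content 40.8%), against 49.3% of the 71 without the pattern (35 genes, median 0.010, median GC content 50.8%). With the trend on GC content and length taken off, 62.4% of the 85 and 52.1% of the 71 were negative. Boxes that depart from the core pattern were not counted, so the 71 may hold further KRAB genes.

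The partners through which KRAB proteins silence DNA gave no call. All 26 genes of a list of such partners were measured, 10 positive and 16 negative in the authors' deposited table (61.5% negative, median log2 fold change -0.025). Of all rows 52.6% were negative, with a median of -0.0044. None of the 26 had an unadjusted p under 0.05 by the authors' DESeq2 test, against 1.50% of all rows, a share at which a list of this size would hold few or none. Trim28, itself on chromosome 7, had a mean count of 1191 with log2 fold change 0.0059 (p = 0.954 by the authors' DESeq2 test) in the authors' deposited table, and Setdb1 had 497.6 and -0.04 (p = 0.642). The smallest p-values were 0.106 for Uhrf1, a partner of the maintenance DNA methyltransferase (-0.14), 0.167 for the chromatin assembly gene Chaf1b (0.07), 0.209 for the heterochromatin protein gene Cbx3 (-0.13) and 0.234 for Pphln1, of the silencing complex HUSH (-0.13), all from the deposited DESeq2 table.

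Sequence shared with transcripts of other genes limits what a count says of 1 gene. The share of a gene's transcript 50-mers found in transcripts of other genes had a median of 0.656% over the 158 and was over 10% for 34 and over 50% for 5, Zfp935, Zfp708, Zfp960, Zfp97 and Zfp59, so that values of these 5 are uncertain. It was 10.4% for Zfp944, 5.81% for Zfp758, 5.80% for Zfp942, 2.26% for Zfp943, 0.869% for Zfp52 and 0 for Zfp579. Zfp960 and Zfp97 shared most with each other, while Zfp935, Zfp708 and Zfp59 shared most with Gm49359, Gm28557 and Gm7452. Whether these Gm genes are relatives elsewhere or models at the same place was not examined. The bounds of 19 of the 158 overlap another row, among them Zfp61 and Zfp94, and no source used here says how reads of overlapping genes were assigned.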

How the data were processed

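Per the labels' protocols, Trizol was used to extract total RNA, and libraries kept strand information and were not selected for poly(A). The submitters' processing notes name build mm10, Bowtie2, Trimmomatic, DESeq2 and DESeq, without versions. Read counter, gene annotation and filters were not given there. The authors deposited 1 table of the comparison of both genotypes, whose 6 columns carry DESeq2's names. Its mean normalized count is a signal averaged by the authors over all samples after scaling counts with size factors. Per the file headers, fold change and standard error are log2 values. The Wald statistic is a score that the authors deposited, and both the p-value and its adjusted value were deposited by the authors.

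On every row the statistic differed from log2 fold change over standard error by at most 8.27e-07, while a Benjamini-Hochberg adjustment over 15944 rows matched the adjusted p to 5.33e-12. Rows without a p numbered 34. The table has no values per sample, so depth, spread between mice and fits without 1 mouse were not analysed here, and the summed mean normalized count was 9226666.

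Symbols, 1-based coordinates and promoters came from RefSeq GRCm38.p6 (15857 rows, 140 promoters of the 158 genes) and from GENCODE vM21 (73 rows). GC content and length came from vM21 transcripts (15869 rows, all 158 genes). Their linear trend was fitted over all rows and subtracted from the fold change and the statistic. Fingers (Cys-X2-4-Cys-X12-His-X3-5-His) and a KRAB core pattern were searched in the longest reading frame. The adjustment, trend, cluster and flanking steps were tested on simulated data, with Python 3.11.15, pandas 2.3.3, numpy 2.4.6, scipy 1.17.1 and matplotlib 3.10.9.

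The genes and lists were chosen with earlier results of these data known. Lists are described by counts and medians, with no test. Genes were named if their unadjusted p was under 0.05, if among the 3 of smallest p, highest count or largest fold change on a chromosome, if at the end of a cluster, or for a known role. Partners of KRAB proteins were named for the 4 smallest p-values, with Trim28 and Setdb1, and flanking genes for p under 0.05 or a place beside a named pair or cluster. A few genes were also named after their values were seen, such as the neighbours of Zfp52, those low in count, high per kilobase or with most fingers, and those with shared 50-mers.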

Additional observations from a re-analysis of the deposited data

How the results depend on the processing

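Across 49 values recomputed under other choices, 44 stayed within 1.5 times the count or within the interval of the median and 5 moved. The sign turned for 2 medians: that of chromosome 13, given next, and that outside clusters, which was -0.011 as reported and 0.00028 with cluster gaps of up to 1 Mb. All 5 moved when the trend on GC content and length was taken off: the median log2 fold change was then -0.014 over all 158 Zfp genes, 0.019 on chromosome 13, -0.032 on chromosome 17 and -0.015 in clusters, and the count of Zfp genes with an unadjusted p under 0.05 was 0, against 4 as deposited by DESeq2. The cause was not tested. The other choices were minimum mean normalized counts of 10 and 50, cluster gaps of 200 kb and 1 Mb, and symbols with a trailing letter. Members with at most 10% shared 50-mers, an alternative chosen after seeing the data, numbered 124, of which 3 had an unadjusted p under 0.05 by DESeq2, without Zfp944. No paired analysis was possible because the table holds no values per sample and no replicate number occurs in both genotypes. Leaving out single mice could not be run for the same reason, and what depth limits was not analysed here.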

Other observations

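Another 12 Zfp genes of chromosomes 7, 13 and 17 carry a letter after their number and stand outside the 158. In the authors' deposited table, 4 of them were positive and 8 negative, and their median log2 fold change was -0.057. The smallest unadjusted p by the authors' DESeq2 test was 0.115, that of Zfp955a (-0.16, SE 0.10). Its near relative Zfp955b had 0.0064 (SE 0.10) in the authors' deposited table.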
